A study of Homo sapiens with 18 samples.

Results

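The genes described here are 10 components of WNT signalling, WNT5A, WNT5B, WNT7A, WNT7B, FZD7, LGR4, DKK1, DKK3, AXIN2 and TCF7L2, in HK-2 cells treated with TGF-beta1, with C-peptide or with both. They were found as the probes of the unnormalized array table whose gene name equals one of these symbols, which gave 17 probes of 48803. WNT7A was not detected on any of the 18 arrays, and the other 9 genes were tested among 12484 genes in all. In these cells TGF-beta1 for 48 h raised WNT5A and WNT5B and lowered WNT7B and AXIN2, calls that held whichever array was left out. FZD7 and DKK3 were also called higher and DKK1 lower, but the FZD7 and DKK3 calls rest on 1 of 2 tested probes, and those of DKK3 and DKK1 were lost in 4 and 3 of 6 fits that left out an array. C-peptide for 48 h gave no change among the 9 genes that passed the test.

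WNT proteins are secreted lipid-modified ligands that bind Frizzled receptors on the cell surface. In the canonical branch, a WNT bound to Frizzled and LRP5 or LRP6 stops the destruction of beta-catenin, which then enters the nucleus and acts with TCF and LEF factors. In other branches, of which WNT5A and WNT5B are the best known ligands, signals run through cell polarity and calcium without need of beta-catenin. In the kidney, WNT signals shape the developing nephron and return in injured and fibrotic tubules.

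HK-2 is an immortalised line of human proximal tubule epithelium, and all flasks came from that single line at passages 18 to 30. Illumina HumanWG-6 V3 bead arrays were hybridised with RNA of 18 flasks, 1 array per flask and 3 flasks per group. The groups were 2 ng/ml TGF-beta1 together with 5 nM C-peptide for 48 h, 2 ng/ml TGF-beta1 alone for 48 h, 5 nM C-peptide alone for 48 h, no supplement for 48 h, 5 nM C-peptide for 18 h, and no supplement for 18 h. All groups shared a preceding culture in 5 mM glucose and an overnight serum starvation, and the 18 h and 48 h treatments ended at the same time. TGF-beta1 is the growth factor most closely tied to tubular fibrosis, and C-peptide is the fragment cut out of proinsulin when insulin is made. Samples were grouped by their titles, although for replicates 2 and 3 of TGF-beta1 the description field reads TGF-b2 and TGF-b3.

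The arrays detected 14580 to 15818 probes each at a detection p under 0.01, with a median of 40 to 42 beads behind a probe. Of 12 proximal tubule markers, 5 were detected on all 18 arrays, among them SLC4A4, PAX8, GGT1 and CDH6, and CUBN, LRP2, AQP1, ANPEP and SLC5A2 were detected on none, so the line lacked several defining transcripts of that segment. Of 6 endothelial markers 5 were detected on no array and PECAM1 on 6 arrays. Of 6 leukocyte markers 4, including PTPRC, were detected on none, CSF1R on 6 arrays and CD68 on all 18. Of 5 podocyte markers 4 were detected on none and PODXL on all 18. Array C-peptide 18 h replicate 3 stood apart, with 221 genes more than 1 log2 unit from both other arrays of its group, against 0 to 5 genes for each of the other 17 arrays. The array numbers in the table's header run in consecutive sets that hold TGF-beta1 alone with the 48 h control, both agents with C-peptide for 48 h, and the 18 h groups. A comparison across sets therefore cannot be told apart from the set. This holds for C-peptide against control at 48 h, both agents against TGF-beta1 or against control, the controls at both times and the C-peptide changes at both times. In bulk RNA, fewer cells of a type and less RNA per cell cannot be told apart either.

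Promoter sequences are shown for WNT5A and WNT5B, the members with the largest increases, and for DKK1, a textbook target of beta-catenin and TCF factors. They come from RefSeq on GRCh38.p14 and run from 250 bases before an annotated start site up to it, 5′ to 3′ on the strand of the gene. Of the 10 genes, 6 had an entry, with 10 windows in all. Capitals mark CTTTGA or its other strand TCAAAG, a core of TCF and LEF motifs, and CAGAC or its other strand GTCTG, the short box that SMAD proteins can bind, searched on both strands. 
WNT5A, first start site, chr3:55481399-55481648, minus strand: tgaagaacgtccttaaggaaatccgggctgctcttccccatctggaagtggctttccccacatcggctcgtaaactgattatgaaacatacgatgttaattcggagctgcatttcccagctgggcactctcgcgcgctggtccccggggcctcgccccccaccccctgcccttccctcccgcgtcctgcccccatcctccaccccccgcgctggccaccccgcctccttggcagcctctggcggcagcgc
WNT5A, second start site, chr3:55487307-55487556, minus strand: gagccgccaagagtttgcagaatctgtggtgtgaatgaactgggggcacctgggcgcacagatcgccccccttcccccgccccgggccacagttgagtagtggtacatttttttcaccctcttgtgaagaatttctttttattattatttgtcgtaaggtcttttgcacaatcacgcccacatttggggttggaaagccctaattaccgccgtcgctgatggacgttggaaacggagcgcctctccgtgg
WNT5B, first start site, chr12:1616806-1617055, plus strand: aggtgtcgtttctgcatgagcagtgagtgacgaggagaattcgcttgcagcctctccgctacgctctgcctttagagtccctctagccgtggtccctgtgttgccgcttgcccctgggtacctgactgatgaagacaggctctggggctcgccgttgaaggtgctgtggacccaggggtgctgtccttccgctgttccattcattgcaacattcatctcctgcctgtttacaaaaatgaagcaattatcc
WNT5B, second start site, chr12:1628981-1629230, plus strand: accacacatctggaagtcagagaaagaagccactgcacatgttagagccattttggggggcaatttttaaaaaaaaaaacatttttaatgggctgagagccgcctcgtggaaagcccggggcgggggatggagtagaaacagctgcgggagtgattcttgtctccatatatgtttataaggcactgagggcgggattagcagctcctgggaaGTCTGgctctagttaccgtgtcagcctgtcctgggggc
DKK1, chr10:52314031-52314280, plus strand: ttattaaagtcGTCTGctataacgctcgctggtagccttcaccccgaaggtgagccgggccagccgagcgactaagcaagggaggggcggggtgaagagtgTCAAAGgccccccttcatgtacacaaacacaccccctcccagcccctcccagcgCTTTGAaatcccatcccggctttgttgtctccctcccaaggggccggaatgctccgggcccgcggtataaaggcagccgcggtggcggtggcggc

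The DKK1 window held 2 matches to the TCF and LEF core and 1 to the SMAD box, and the second WNT5B window held 1 SMAD box. No other window of the 6 genes held either motif. The TCF and LEF core occurred in 11.2% of 35116 RefSeq windows of the same length and the SMAD box in 38.0%, so these matches are common letters and are given as a description of the sequence alone.

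Levels are log2 intensities after background correction and quantile normalization, with values near 4.4 for a probe at background, as for WNT7A, which averaged 4.44 ± 0.04 with TGF-beta1 and 4.47 ± 0.08 in the 48 h control (SD, n = 3 each). Levels of different probes are not on a common scale and are compared only between groups. A gene was called when its adjusted p in the limma model was under 0.05 with the Benjamini-Hochberg method over all 12484 genes. TGF-beta1 against control called 7 of the 9 members, 4 higher and 3 lower. Over all genes tested, 45.1% were called, 21.9% as higher and 23.2% as lower. More fibroblast markers were detected with TGF-beta1, with 4 of 7 detected on all 3 arrays of each group given it and 2 of 7 in each other group. LUM and PDGFRA were detected on all 18 arrays and COL3A1, DPT and POSTN on none. The summed list overlapped, at 2219.7 to 2579.6 in raw intensity with TGF-beta1 and 2136.4 to 2302.3 in the 48 h control. The 12 proximal tubule markers summed to 6079.8 to 6862.4 with TGF-beta1 and 7273.9 to 7745 in that control. With both agents they summed to 4002 to 5149.7, with C-peptide alone for 48 h to 5245.5 to 5700.8, and in the untreated 18 h control to 4332.8 to 4835.7. The arrays differed in mean raw intensity, at 307.3 to 343.7 in the 48 h control and 302.7 to 306.1 with TGF-beta1. It was 216.7 to 276.7 with both agents, 261.2 to 280.7 with C-peptide for 48 h and 215.9 to 247.4 in the 18 h control. The sums of these 12 markers are not scaled for that, so no treatment effect is read from them. The 8 markers of distal tubule and collecting duct summed to 37.8 to 53.1 with TGF-beta1 and 318.4 to 389.5 in the 48 h control, with 6 of them, including UMOD and AQP2, detected on no array. Only SCNN1A, on 12 arrays, and ATP6V1B1, on 10, were detected, so the difference is not one of the whole list. The part of these markers in the members' changes was not tested. The members' median log2 change was 0.17 and their median absolute change 0.59, against -0.01 and 0.25 over all genes. Because the members were chosen with earlier results of these data known, their larger values and share of calls are a description alone.

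**Figure D1:**
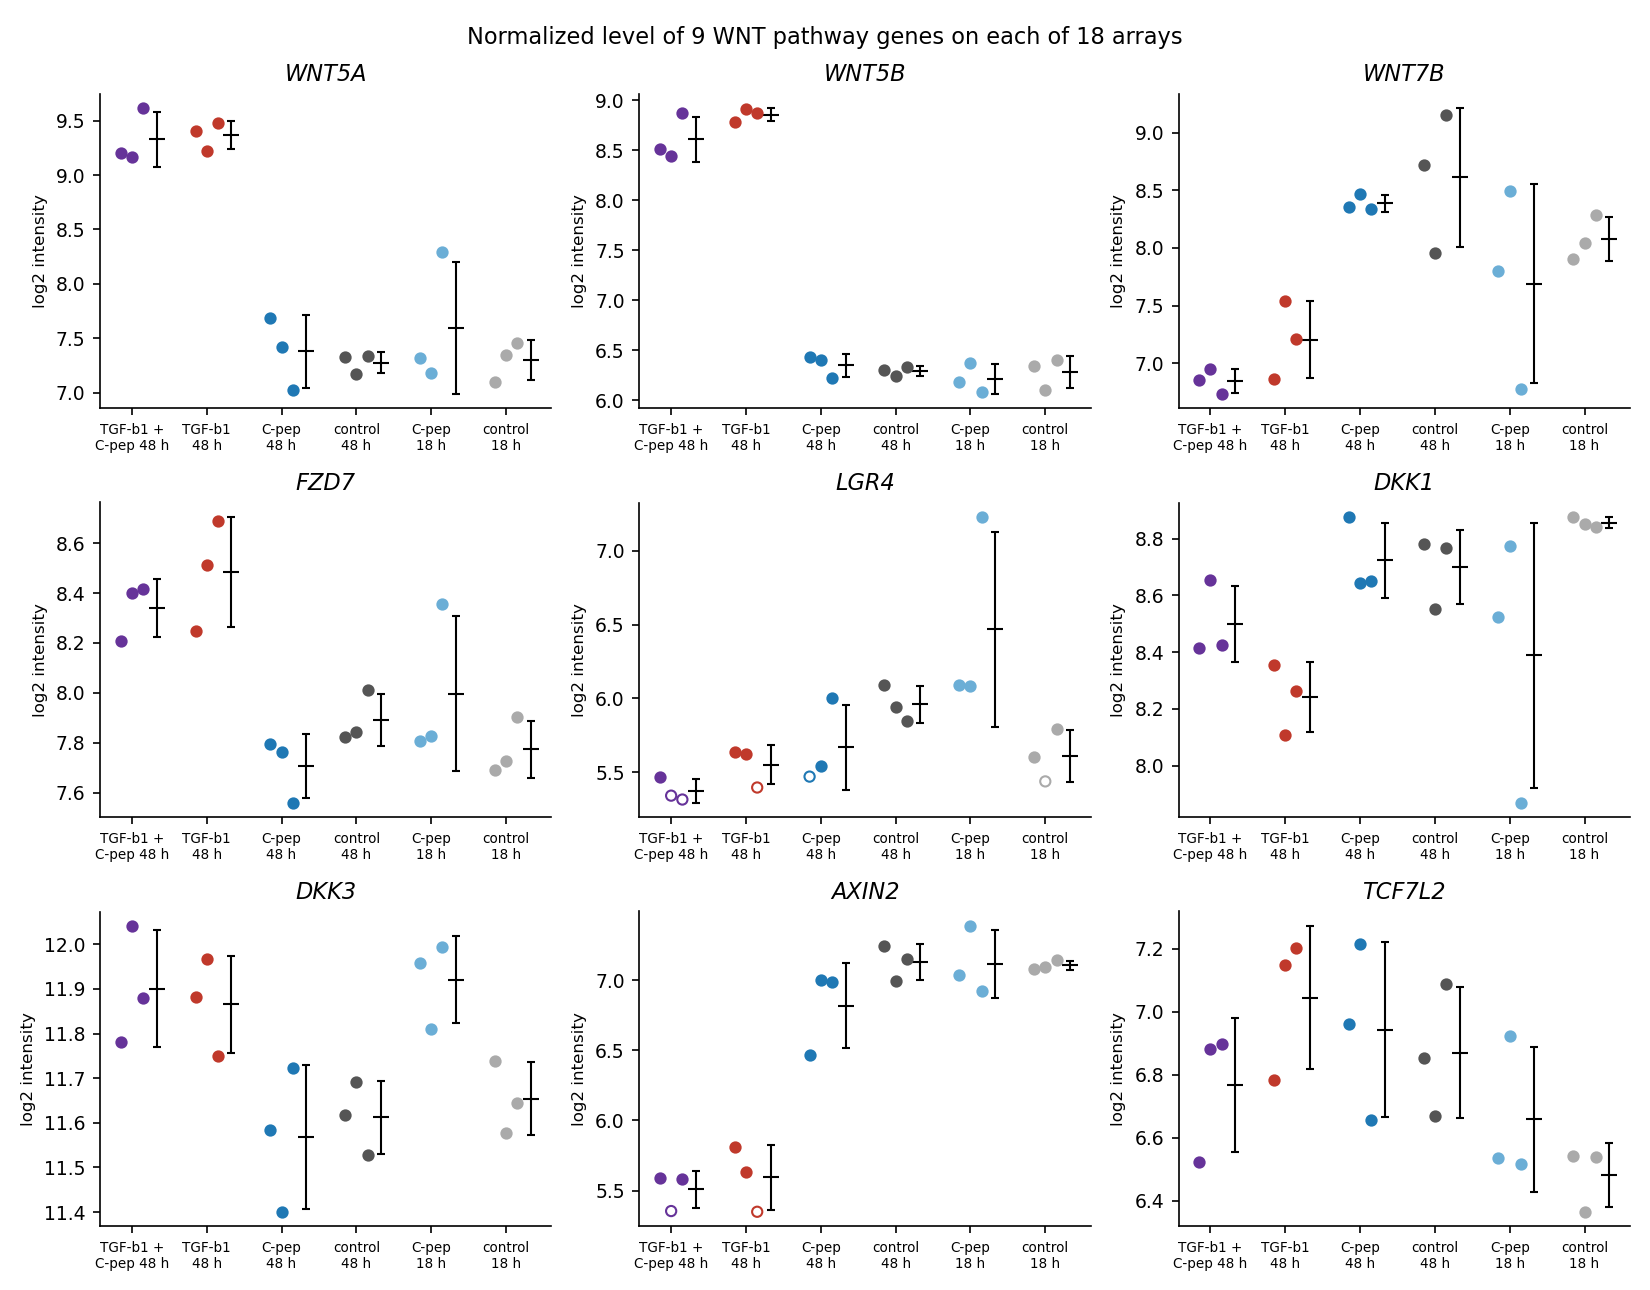
Normalized log2 intensity (vertical axes, each with its own range) of the 9 tested genes on each of the 18 arrays, by group from both agents at the left to the 18 h control at the right. Points are arrays, hollow where the probe was not detected at p under 0.01, and bars give the mean and SD of 3 arrays. The 6 arrays with TGF-beta1 lie above all 12 others for WNT5A and WNT5B and below all 12 others for AXIN2.

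Among the ligands, WNT5B, which signals mainly without beta-catenin, was at 8.78, 8.92 and 8.87 on the log2 scale with TGF-beta1, against 6.30, 6.24 and 6.33 in the 48 h control. The groups were far apart, and the arrays within each lay close together. The log2 change was 2.57 (SE 0.12, limma adjusted p = 7.28e-13), a fold of 5.92. A further WNT5B probe was detected on 0 of 18 arrays.

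WNT5A, the best studied ligand of the branches that do not need beta-catenin, was at 9.40, 9.22 and 9.48 with TGF-beta1 and at 7.33, 7.17 and 7.33 in the 48 h control. All treated flasks were higher than all controls, with a log2 change of 2.09 (SE 0.21, limma adjusted p = 9.2e-08), a fold of 4.26.

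WNT7B, a ligand of the canonical branch needed in mice for the renal medulla, moved the other way. Its levels were 6.87, 7.54 and 7.21 with TGF-beta1 and 8.72, 7.96 and 9.15 in the 48 h control, so the groups did not overlap although the controls were spread over more than 1 log2 unit. The log2 change was -1.41 (SE 0.30, limma adjusted p = 0.000688). A dimmer WNT7B probe, detected on 13 of 18 arrays, had a log2 change of -0.94 (SE 0.22, adjusted p = 0.00166 over 16322 probes). The related ligand WNT7A had raw intensities between -4 and 6 on all arrays, which gives no measured level in any group.

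Among the receptors, FZD7, a Frizzled receptor that takes part in canonical and other WNT signals, was at 8.25, 8.51 and 8.69 with TGF-beta1 and at 7.82, 7.84 and 8.01 in the 48 h control. The treated arrays were all above the controls, with a log2 change of 0.59 (SE 0.14, limma adjusted p = 0.00133). The 2 FZD7 probes disagreed. On the dimmer one, detected on all 18 arrays, the levels were 6.49, 6.06 and 6.11 with TGF-beta1 and 6.18, 6.37 and 6.31 in the control, a log2 difference of -0.07 (SE 0.14, adjusted p = 0.731). The increase of FZD7 therefore rests on 1 of its 2 probes.

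LGR4, a receptor for R-spondins that strengthens WNT signals by keeping Frizzled receptors on the surface, was near the detection limit, with 13 of 18 arrays detected. It was at 5.63, 5.62 and 5.40 with TGF-beta1, where 2 of 3 arrays were detected, and at 6.09, 5.94 and 5.84 in the 48 h control, where all 3 were. The treated arrays were all lower, but the log2 difference of -0.41 (SE 0.22, limma adjusted p = 0.132) did not pass the test. It passed in 2 of 9 other settings, with only the compared groups fitted and with array weights (lowest adjusted p = 0.00443).

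Among the secreted inhibitors, DKK1, which blocks LRP5 and LRP6, was at 8.35, 8.11 and 8.26 with TGF-beta1, against 8.78, 8.55 and 8.77 in the 48 h control. The groups did not overlap and the log2 change was -0.46 (SE 0.15, limma adjusted p = 0.0198). The call was lost without control replicate 1 (adjusted p = 0.0695), control replicate 3 (0.0639) or TGF-beta1 replicate 2 (0.081). A further DKK1 probe was detected on 1 of 18 arrays and was not tested.

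DKK3, a member of the Dickkopf family by sequence that does not bind LRP6 as DKK1 does, was at 11.88, 11.97 and 11.75 with TGF-beta1 and at 11.62, 11.69 and 11.53 in the 48 h control. Its log2 change of 0.25 (SE 0.09, limma adjusted p = 0.0267) was the smallest of the called members. The call was lost without control replicate 1 (adjusted p = 0.0588), control replicate 3 (0.108), TGF-beta1 replicate 1 (0.0657) or TGF-beta1 replicate 2 (0.115), and in 2 of 9 other settings, no filter on dim probes and median scaling (adjusted p up to 0.169). A second DKK3 probe differed by 0.10 (SE 0.08, adjusted p = 0.363), and 2 more were detected on no array.

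Inside the cell, AXIN2, a scaffold of the complex that destroys beta-catenin and the most widely used target gene of the canonical branch, was at 5.81, 5.63 and 5.35 with TGF-beta1 and at 7.24, 6.99 and 7.15 in the 48 h control. The log2 change was -1.53 (SE 0.15, limma adjusted p = 5.5e-08), a fold of 2.89 lower. One treated array of the 3 was below the detection limit, while AXIN2 was detected on every array without TGF-beta1. TCF7L2, a nuclear partner of beta-catenin, was at 6.78, 7.15 and 7.20 with TGF-beta1 and at 6.85, 6.67 and 7.09 in the control. These ranges overlapped, and the log2 difference of 0.17 (SE 0.16, limma adjusted p = 0.389) did not pass, with a 95% confidence interval from -0.15 to 0.50.

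TGF-beta1 in the presence of C-peptide was compared with C-peptide alone, on arrays that share no flask with the comparison above. It called 6 of the 9 members, 4 higher and 2 lower, against 43.0% of all genes, 21.3% as higher and 21.7% as lower. WNT5B was at 8.51, 8.45 and 8.87 with both agents and at 6.43, 6.40 and 6.22 with C-peptide alone, a log2 change of 2.26 (SE 0.12, limma adjusted p = 5.24e-12). WNT5A was at 9.20, 9.17 and 9.62 with both agents and at 7.69, 7.42 and 7.03 with C-peptide alone, a change of 1.95 (SE 0.21). Both ligands again separated the groups by more than the spread of the arrays.

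WNT7B was at 6.85, 6.95 and 6.74 with both agents and at 8.35, 8.47 and 8.34 with C-peptide alone, a log2 change of -1.54 (SE 0.30, limma adjusted p = 0.000299). Its dimmer probe was not detected on any of the 3 arrays with both agents, and was at least 1.85-fold lower there (adjusted p = 0.000452), the bound being set against the dimmest detected probe of each array. AXIN2 was at 5.59, 5.35 and 5.58 with both agents and at 6.47, 7.00 and 6.99 with C-peptide alone, a change of -1.31 (SE 0.15, limma adjusted p = 5.2e-07). These 2 genes fell without overlap between the groups.

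FZD7 rose by 0.64 on the log2 scale (SE 0.14, limma adjusted p = 0.000723), from its brighter probe, while the dimmer one gave 0.26 (SE 0.14, adjusted p = 0.155). DKK3 rose by 0.33 (SE 0.09, limma adjusted p = 0.00535), with 0.20 on its second probe (SE 0.08, adjusted p = 0.0588). DKK1 was at 8.42, 8.65 and 8.43 with both agents and at 8.88, 8.64 and 8.65 with C-peptide alone, which overlapped, and its difference of -0.22 (SE 0.15, limma adjusted p = 0.254) did not pass. LGR4 differed by -0.30 (SE 0.22, adjusted p = 0.287) and TCF7L2 by -0.18 (SE 0.16, adjusted p = 0.391).

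**Figure D2:**
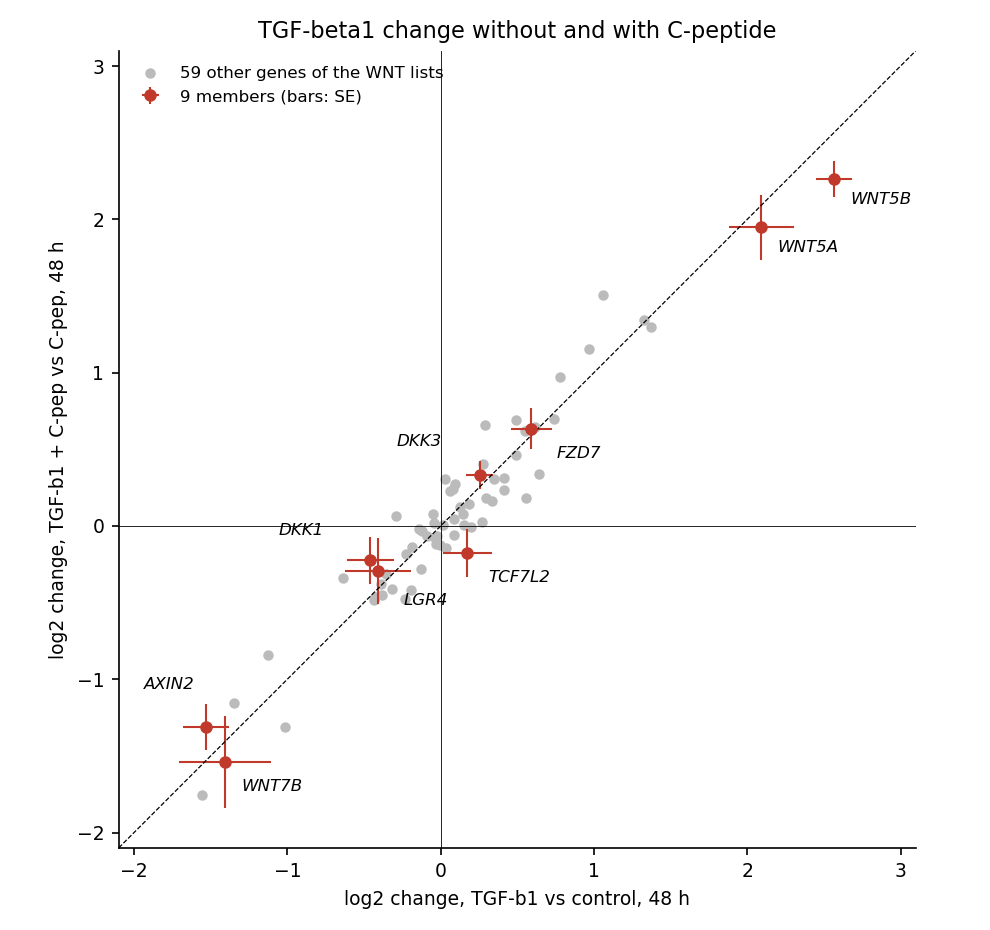
Log2 change with TGF-beta1 alone against control (horizontal axis) and with TGF-beta1 and C-peptide against C-peptide (vertical axis), both at 48 h. Red points are the 9 members with bars of 1 SE, grey points 59 other genes of the WNT lists, and the dashed line marks equal changes. The members spread along that line from AXIN2 and WNT7B at the lower left to WNT5A and WNT5B at the upper right.

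Between these separate pairs of groups 8 of 9 members had the same sign, and TCF7L2, called in neither, did not. The same sign was also seen for 10693 of all 12484 genes and 53 of 59 other WNT genes, so the members' count is nothing particular to them. Calls in the same direction in both comparisons were made for 6 members, or 66.7%, against 35.4% of all 12484 genes and 33.9% of 59 other WNT genes. The members were chosen with earlier results of these data known, so their higher share is given as a description alone. The test of whether C-peptide altered the TGF-beta1 change, an interaction term, called 0 members and 0% of all genes, with 0 members and 388 genes at an unadjusted p under 0.05 in limma. For WNT5B the interaction was -0.30 (95% confidence interval -0.65 to 0.04) and for WNT5A -0.14 (-0.77 to 0.48) on the log2 scale. These intervals do not show that C-peptide left the TGF-beta1 change as it was.

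Both agents against the untreated 48 h control, which shares flasks with each comparison above, called 7 members against 54.0% of all genes. WNT5B, WNT5A, FZD7 and DKK3 rose by 2.32, 2.05, 0.45 and 0.29 on the log2 scale. The dimmer FZD7 probe differed by 0.05 (SE 0.14, limma adjusted p = 0.79 over 16322 probes), so the FZD7 increase again rests on 1 of 2 probes. The second DKK3 probe rose by 0.28 (SE 0.08, adjusted p = 0.00735). AXIN2 fell by 1.62, WNT7B by 1.77 and LGR4 by 0.58, the last with a limma adjusted p of 0.0276. DKK1 differed by -0.20 (adjusted p = 0.281). Only 1 of the 3 arrays with both agents detected LGR4, and its call was lost without control replicate 1 (adjusted p = 0.0907) or 2 (0.0549) or without replicate 2 (0.0684) or 3 (0.0708) of both agents. The DKK3 call was lost without control replicate 3 (adjusted p = 0.0531) or replicate 2 of both agents (0.0731) and with median scaling (0.273).

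**Figure D3:**
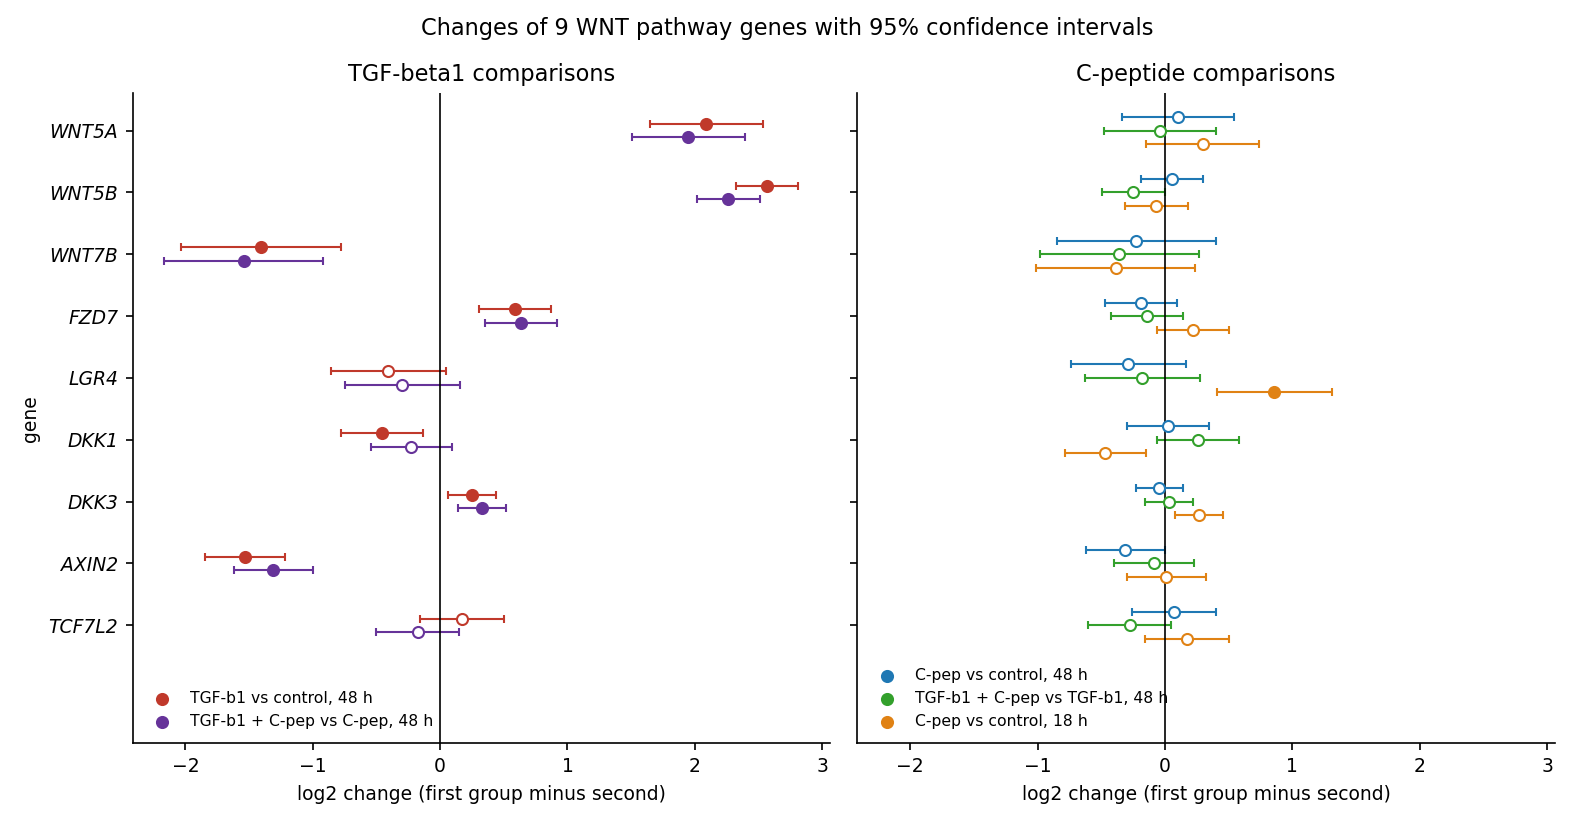
Log2 changes (horizontal axes) of the 9 tested genes with 95% confidence intervals, with the TGF-beta1 comparisons on the left and the C-peptide comparisons on the right. Filled points passed an adjusted p under 0.05. The right panel has a single filled point, LGR4 after C-peptide for 18 h, at 0.86.

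C-peptide for 48 h against control called none of the 9 members, 0 of which had an unadjusted p under 0.05 in limma, while 5.33% of all genes were called. That share stands on 665 genes, and the number was between 197 and 1010 when an array was left out, the lowest without replicate 1 and the highest without replicate 3 of the C-peptide arrays. It was 1310 with only the compared groups fitted, 3145 with array weights and 2335 with median scaling. The largest differences among the members were those of AXIN2, -0.31 (SE 0.15, adjusted p = 0.225), and LGR4, -0.29 (SE 0.22, adjusted p = 0.452). WNT5A differed by 0.10 (95% confidence interval -0.34 to 0.54), WNT5B by 0.06 (-0.19 to 0.30) and DKK1 by 0.02 (-0.30 to 0.34). These intervals bound the change that could have gone unseen and do not show that levels were equal.

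C-peptide added to TGF-beta1, against TGF-beta1 alone, also called 0 members, with 1 at an unadjusted p under 0.05 in limma. Of all genes 2.15% were called, or 268 genes, which became 52 to 173 when an array was left out. That number was 857 with only the compared groups fitted, 1441 with array weights and 2998 with median scaling, so the share depends on the setting. The member at an unadjusted p under 0.05 was WNT5B, at 8.51, 8.45 and 8.87 with both agents and at 8.78, 8.92 and 8.87 with TGF-beta1 alone. The ranges overlapped, and the log2 difference was -0.25 (SE 0.12, adjusted p = 0.265). DKK1 was higher on all 3 arrays with both agents, but its log2 difference of 0.26 (adjusted p = 0.383, SE 0.15) failed the test too.

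C-peptide for 18 h against the 18 h control called 1 member, LGR4, against 2.29% of all genes. This share stands on 286 genes and was not stable. The number was 0 without control replicate 1 or 2 and when only the compared arrays were fitted, and 1786 without control replicate 3. Leaving out replicate 1 of the C-peptide arrays gave 1327, and leaving out their replicate 3 gave 79. LGR4 was at 6.09, 6.09 and 7.23 with C-peptide and at 5.60, 5.44 and 5.79 in the control, where 1 of 3 arrays did not detect it. The groups did not overlap, and the log2 change was 0.86 (SE 0.22, limma adjusted p = 0.0445). The high value lay on C-peptide replicate 3, the array that stood apart, and without it the change was 0.48 (adjusted p = 0.102). The call was also lost without control replicate 1 (adjusted p = 0.229) or control replicate 2 (0.167), and when only the arrays of the comparison were fitted (0.366).

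The same array carried the outlying values of other members. On it WNT5A was at 8.29, against 7.32 and 7.18 on the other C-peptide arrays, FZD7 at 8.36 against 7.81 and 7.83, WNT7B at 6.78 against 7.80 and 8.49, and DKK1 at 7.87 against 8.52 and 8.77. Without it the C-peptide differences at 18 h were -0.05 for WNT5A, 0.04 for FZD7, 0.07 for WNT7B and -0.21 for DKK1, none of them called. With it they were 0.30, 0.22, -0.39 and -0.47, the last with a limma adjusted p of 0.0809. DKK3 was at 11.96, 11.81 and 11.99 with C-peptide for 18 h and at 11.74, 11.58 and 11.65 in the control. Its brighter probe differed by 0.27 (SE 0.09, adjusted p = 0.0856), and its second probe rose by 0.44 (SE 0.08, adjusted p = 0.0263 over 16322 probes).

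The responses to C-peptide at the later and the earlier time were set against each other directly, which called 8.92% of all genes and, among the members, LGR4. Its change was 1.15 lower on the log2 scale at 48 h than at 18 h (SE 0.31, limma adjusted p = 0.0288), and 0.77 lower without the array that stood apart (adjusted p = 0.0186). The call was lost in 6 of 12 fits that left out an array (adjusted p up to 0.0865) and with only the compared groups fitted (0.0764), and the contrast crosses the sets of array numbers. The number of genes called in it, 1114, ran from 171 without control 18 h replicate 1 to 2479 without control 18 h replicate 3. It was 3369 with array weights and 3481 with median scaling. The untreated 48 h and 18 h controls differed in 0.00801% of all genes, a single gene, and in 0 members. That number was 1570 without control 18 h replicate 3, 136 with only these groups fitted, 86 with the replicate block, 2922 with array weights and 7250 with median scaling, so the low share depends on the setting. At an unadjusted p under 0.05 in limma there was 1 member, TCF7L2, at 6.85, 6.67 and 7.09 in the 48 h control and at 6.54, 6.37 and 6.54 in the 18 h control (log2 difference 0.39, adjusted p = 0.164).

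**Figure D4:**
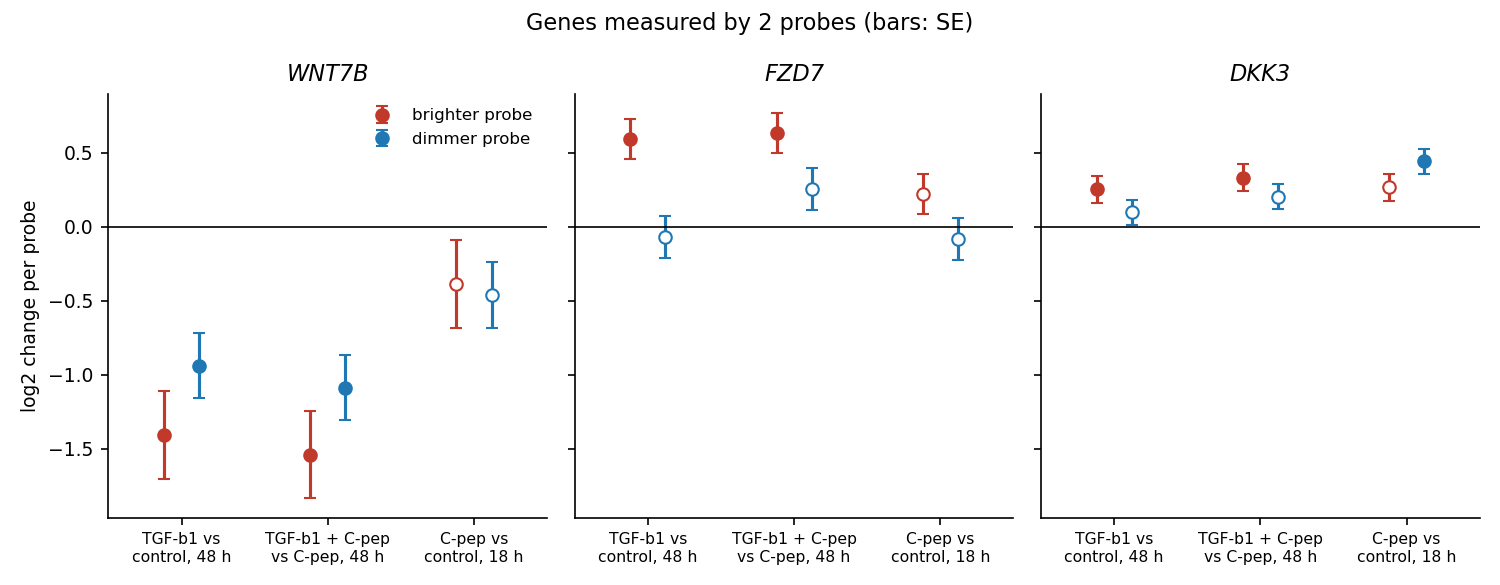
Log2 change per probe (vertical axis, bars of 1 SE) for the 3 genes with 2 tested probes, in 3 comparisons. Filled points passed an adjusted p under 0.05 over all 16322 probes. The WNT7B probes moved alike with TGF-beta1, while for FZD7 the brighter probe gave 0.59 and the dimmer one -0.07; the dimmer WNT7B probe was not detected on arrays with both agents.

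Across the 18 arrays the log2 levels of WNT5A and WNT5B had a Pearson r of 0.95, and AXIN2 had an r of -0.95 with each. These arrays share the 6 groups, so the values mostly restate which arrays had TGF-beta1 and are given as a description. By the same measure the tested genes most like WNT5B included TGFBI (r = 0.994) and FLRT2 (0.993). Those most like WNT5A were TNFAIP6 (0.989), LOX (0.986) and PLEK2 (0.986), and those most like WNT7B were IGFBP5 (0.960), CLSTN2 (0.956) and YPEL1 (0.947).

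Of 107 other genes in lists of WNT components, 106 had a probe and 59 were tested. TGF-beta1 against control called 14 of the 59 higher and 12 lower, with 33 not called, a share close to the 45.1% of all genes. The counts per list are given beside that share, and nothing particular to a list is read from them. Their median log2 change was 0.06 and their median absolute change 0.29. Among 6 other ligands and secretion genes, 0 rose and 3 fell. WNT10A and WNT2B were detected on all 3 control arrays and on none with TGF-beta1, and were at least 1.76-fold lower (limma adjusted p = 8.74e-07) and at least 1.90-fold lower (4.63e-08) with TGF-beta1. WLS, the carrier that takes WNT proteins to the cell surface, fell by 0.43 (SE 0.07).

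Of 11 other receptors and co-receptors 2 rose and 2 fell. LRP5, a canonical co-receptor, fell by 1.12 on the log2 scale (SE 0.14, limma adjusted p = 1.04e-06), and FZD6 rose by 0.55 (SE 0.09). The other canonical co-receptor, LRP6, differed by -0.09 (SE 0.15). Of 4 genes of R-spondin receptors and receptor turnover 1 rose. That was LGR6, a relative of LGR4, which was detected on all 3 arrays with TGF-beta1 and on none of the control, and was at least 1.21-fold higher (adjusted p = 1.87e-06). Of 2 other inhibitors, KREMEN2, a receptor that works with DKK1, fell by 0.36 (SE 0.14, adjusted p = 0.0459).

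Within the cell, 4 of 11 cytoplasmic genes rose and 2 fell. DACT1, a binding partner of Dishevelled, rose by 0.97 (SE 0.20, limma adjusted p = 0.000629), AXIN1, the constitutive relative of AXIN2, fell by 0.64 (SE 0.16, adjusted p = 0.00318), and CTNNB1, which encodes beta-catenin, rose by 0.42 (SE 0.12, adjusted p = 0.00736). Of 10 nuclear genes 2 rose, and the 1 that fell was the co-repressor TLE1, by 1.02 (SE 0.11).

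Besides the members AXIN2 and DKK1, both called lower, 7 beta-catenin target genes were tested. Of these 3 rose and 0 fell, where 45.1% of all genes were called. Those that rose were CD44, a hyaluronan receptor, by 1.37 (SE 0.17, limma adjusted p = 1.61e-06), TNFRSF19 by 1.33 (SE 0.09) and the cell cycle gene CCND1 by 0.74 (SE 0.13). MYC differed by 0.06 (SE 0.08, adjusted p = 0.576). Of 9 planar polarity genes 2 rose and 3 fell, with PRICKLE2 higher by 0.78 (SE 0.16, adjusted p = 0.00051).

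**Figure D5:**
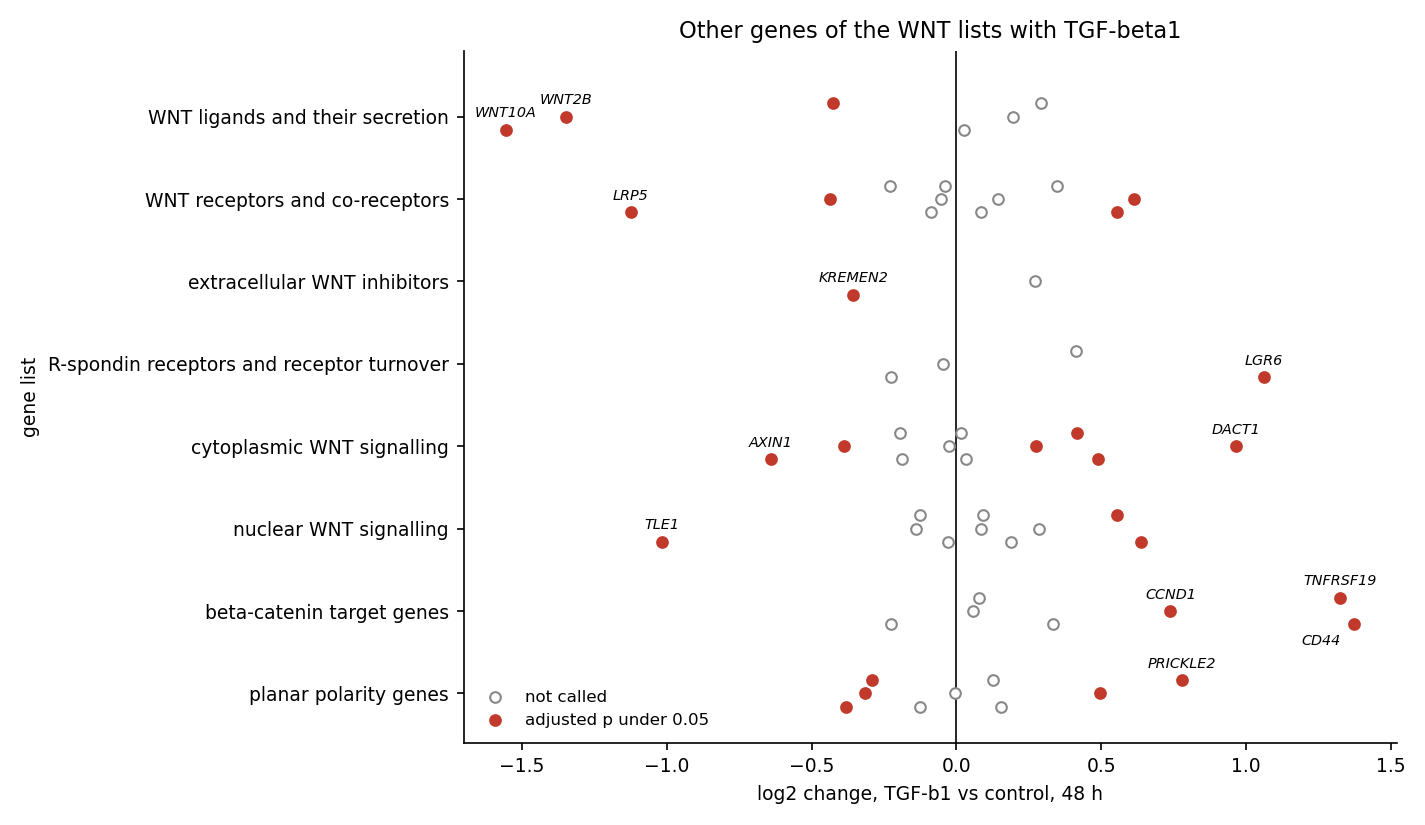
Log2 change with TGF-beta1 against control at 48 h (horizontal axis) for the 59 other tested genes, in rows by list. Each point is a gene, filled where its adjusted p was under 0.05. Among these genes, filled points lie only to the right of 0 for the targets of beta-catenin and only to the left for the other ligands. The members are not drawn. Of them, AXIN2, DKK1 and WNT7B were called lower and WNT5A and WNT5B higher, so neither direction holds for all targets or all ligands.

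The same 59 genes had 14 higher and 11 lower calls for both agents against C-peptide alone, where 43.0% of all genes were called. C-peptide called 1 of them at 48 h, 2 at 18 h and 1 when added to TGF-beta1, against 5.33%, 2.29% and 2.15% of all genes. FZD6 rose by 0.48 with C-peptide for 48 h (SE 0.09, limma adjusted p = 0.00283), a comparison that crosses the sets of array numbers. At 18 h CCND1 fell by 0.59 (SE 0.13, adjusted p = 0.0384) and CSNK1E, a casein kinase, by 0.31 (SE 0.08, adjusted p = 0.0497), and neither was called without C-peptide replicate 3. With both agents against TGF-beta1 alone 1 gene was called lower, the kinase CSNK1A1, by 0.40 (SE 0.10, adjusted p = 0.0354). That comparison crosses the sets of array numbers as well, and 0 to 1 of the 59 genes were called in it when an array was left out.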

How the data were processed

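Per the file headers, the authors deposited unnormalized mean bead intensity exported from GenomeStudio 1.1.1, with a detection value that is a fraction equal to 1 minus the detection p, plus a table of normalized intensity. A background had been subtracted, with 23.4% to 28.1% of each array's values below 0. The same deposited table gives the count of beads per probe. The normalization steps of the second table are not given in the sources used here, and it served as an alternative only. Intensities were corrected, quantile normalized and taken to log2 with neqc of limma 3.58.1 (R 4.3.3, offset 16). Probes detected on 3 or more arrays at a detection p under 0.01 were kept (16322), and the brightest per gene was used (12484 genes). Group means of all 18 arrays were fitted with lmFit and eBayes with an intensity trend (12 residual degrees of freedom), with Benjamini-Hochberg adjustment per comparison. The fit was tested on simulated data with independent noise, no outlying array and no difference between the sets of array numbers. That test therefore does not cover these features of the arrays. Flasks are the replicates, 3 per group, and their number limits the precision. All members are named, and of the other WNT genes those called for TGF-beta1 with the largest changes (up to 12, at least 1 per list) and those called for C-peptide. CTNNB1, WLS, FZD6 (with TGF-beta1), LRP6 and MYC were added after their values were seen. Some genes of the marker and likeness lists are not reported here. Members and lists were chosen with earlier results of these data known. Alternatives covered scaling, filters, the samples fitted, array weights, the variance trend, probes, a replicate block and leaving out each array.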

Additional observations from a re-analysis of the deposited data

Results flagged for a closer look

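The change of LGR4 with C-peptide differed between the times. It was -1.15 on the log2 scale at 48 h minus 18 h (SE 0.31, adjusted p = 0.0288 in limma), with values of 5.47, 5.54 and 6.00 with C-peptide against 6.09, 5.94 and 5.84 in the control at 48 h, and of 6.09, 6.09 and 7.23 with C-peptide against 5.60, 5.44 and 5.79 in the control at 18 h. The difference kept its sign in all 12 fits that left out 1 array and was called in 6 of them (adjusted p from 0.015 to 0.0865). The contrast crosses the sets of array numbers and cannot be told apart from them. It was not called when only the arrays compared were fitted (adjusted p = 0.0764). LGR4 was under the detection limit on 1 of 3 C-peptide arrays at 48 h and on 1 of 3 controls at 18 h.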

How the results depend on the processing

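The calls of WNT5A, WNT5B, WNT7B and AXIN2 in all TGF-beta1 comparisons held in each of 9 other settings and in every fit that left out 1 array. FZD7 did so as well except with median scaling for both agents against control (0.11, adjusted p = 0.535). The members called ranged from 5 to 7 for TGF-beta1 against control when an array was left out (other WNT genes 21 to 25), from 5 to 7 for both agents against control, and stayed at 6 for both agents against C-peptide (20 to 25). Scaling arrays to a common median without quantile normalization shifted the median of all genes by -0.06 for TGF-beta1, -0.30 for both agents against control, -0.11 against C-peptide and -0.24 against TGF-beta1, -0.21 and 0.12 for C-peptide at 48 h and 18 h, -0.31 between these and 0.36 between controls. It then called 3 members and 18 other WNT genes for both agents against TGF-beta1, all lower, 14 other WNT genes for C-peptide at 48 h, 1 at 18 h, 3 members between the C-peptide times and 6 between the controls. DKK3 there turned to 0.33 (adjusted p = 0.0281), which is -0.03 relative to the shift. For both agents against C-peptide the calls over all genes split into 1603 higher and 3149 lower, against 2657 and 2707, and over the WNT lists into 12 and 15, against 14 and 11.

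For C-peptide at 18 h, members called were 0 with no filter, with detection p under 0.05 in the filter, with only the compared groups fitted and with no intensity trend, and 0 to 2 with an array left out. Other WNT genes called there were 0, 1, 0 and 1 in these settings, 5 with array weights and 0 to 8 with an array left out. For C-peptide at 48 h array weights called 1 member, LGR4, and 14 other WNT genes, own groups 5, no trend 2, every probe 2, and leaving out an array 1 to 4. For both agents against TGF-beta1 other WNT genes were 0 with no filter, 3 with own groups, 8 with array weights (1 member) and 0 to 1 with an array left out. Between the C-peptide times, members called were 0 with own groups, 2 with array weights and 0 to 2 with an array left out, and between controls 3 with array weights. The cause of these moves was not tested.

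With the replicate number as a block, 7 members were called for TGF-beta1 against control and 25 other WNT genes, and no member's call changed. No pairing by number was seen over all genes: deviations of arrays with the same number had a median r of 0.01, and 3 of 18 arrays correlated best with their own number. These values cannot show that flasks were not handled in pairs. With the block, the genes called went from 286 to 547 for C-peptide at 18 h and from 1 to 86 between the controls. The set of array numbers as a block could not be fitted, because the group means already hold it.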
